A study of Mus musculus with 4 samples.

Results

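The nuclear genes of the respiratory chain and ATP synthase were examined across both subdivisions of the dorsal striatum in Foxp2hum/hum and wild-type mice. A gene was taken as a member when its symbol began with Nduf and a subunit letter and number, with Uqcr, with Cox and a number between 4 and 8, or with Atp5, or was Sdha, Sdhb, Sdhc, Sdhd, Cyc1 or Cycs. Of 88 matching symbols, 1 pseudogene symbol (Atp5l-ps1) and 2 genes with a mean under 10 normalised reads (Cox8b with 6.86 and Cox7b2 with 7.82) were left out. This gave 85 of the 25259 genes in the table, and all 85 passed the filter on low values used for testing, because the same minimum defined them.

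Messenger RNA was sequenced from striatal tissue of 8-week-old C57BL/6 mice, in which laser capture was used to take either the dorsomedial (DMS) or the dorsolateral (DLS) subdivision, with 15 ng of total RNA per library. The mice were homozygous for Foxp2hum, a humanised allele of the forkhead transcription factor gene Foxp2, or were wild-type. The 46 libraries comprised 12 from Foxp2hum/hum DMS, 11 from wild-type DMS, 12 from Foxp2hum/hum DLS and 11 from wild-type DLS. Which libraries share an animal is not in the labels, so p-values measure the spread between libraries.

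The respiratory chain passes electrons from NADH through complex I, and from succinate through complex II, to ubiquinone and on through complex III, cytochrome c and complex IV to oxygen. The proton gradient that complexes I, III and IV build up drives ATP synthase, here called complex V. Complexes I, III, IV and V are assembled from nuclear and mitochondrially encoded subunits, whereas complex II and cytochrome c are wholly nuclear encoded. In brain, most ATP comes from this pathway, and a large share of it is spent on restoring ion gradients after electrical activity.

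By complex, 37 members belonged to complex I, 4 to complex II, 9 to complex III, 15 to complex IV and 18 to complex V, beside the gene of cytochrome c, Cycs. The remaining member, Cox4nb, lies beside Cox4i1 and encodes a subunit of the endoplasmic reticulum membrane complex, so its symbol goes against its role. Another 4 members carry a matching symbol without being subunits: Cox7a2l, a factor of supercomplex assembly, Atp5l2, annotated as a pseudogene, Atp5s, a coupling factor, and Atp5sl, which acts in complex I assembly. Ndufa4 was counted under complex I by its name, although its product is now assigned to complex IV. In complex I, 7 members encode core subunits, which carry the flavin, the iron-sulphur clusters or the ubiquinone site and have bacterial counterparts, and 29 encode supernumerary subunits.

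Library totals ran from 16.79 to 41.01 megareads. The nuclear members took 0.816% ± 0.0923 of the normalised reads in Foxp2hum/hum DMS, 0.758% ± 0.143 in wild-type DMS, 0.822% ± 0.131 in Foxp2hum/hum DLS and 0.777% ± 0.158 in wild-type DLS (SD, n = 12, 11, 12 and 11). The 37 mitochondrially encoded genes took 22.4% ± 3.84, 20.2% ± 4.16, 24.8% ± 2.87 and 22.7% ± 3.61 in the same order. Projection neuron markers were present in every group, with summed levels of 88962 to 120618 normalised reads in Foxp2hum/hum DMS, 97074 to 130545 in wild-type DMS, 136724 to 165411 in Foxp2hum/hum DLS and 141261 to 172942 in wild-type DLS. Of the 9 markers, 7 passed as lower in DMS than in DLS in each genotype (limma, adjusted p under 0.05), and their part in the regional differences of the members was not tested. In bulk tissue, fewer cells of a type and less RNA per cell cannot be told apart. Library 94 of Foxp2hum/hum DLS and library 89 of wild-type DLS stood below the rest, with a mean log2 level over the 85 genes of 9.60 and 9.62, against 10.20 and 10.03 for the next lowest library of their groups.

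The promoters of 4 members that differed between the regions (Cycs, Cox6a1, Atp5b and Cox6b2), and for comparison that of Sdha, which did not pass and stood apart in covariation, are shown here. Each runs from 250 bases before to 50 bases after the annotated start (RefSeq, build GRCm38.p6, whereas all other positions are on mm9). Capitals mark the motif CGCATGCG of NRF1, a transcription factor known for binding many respiratory chain promoters. The gene of cytochrome c (chr6:50566520-50566819, minus strand) and Cox6a1 (chr5:115348909-115349208, minus strand) each held 1 match. None of the motifs searched was found in the window of Atp5b (chr10:128083057-128083356, plus strand), of Cox6b2 (chr7:4753045-4753344, minus strand) or of Sdha (chr13:74350191-74350490, minus strand).
Cycs: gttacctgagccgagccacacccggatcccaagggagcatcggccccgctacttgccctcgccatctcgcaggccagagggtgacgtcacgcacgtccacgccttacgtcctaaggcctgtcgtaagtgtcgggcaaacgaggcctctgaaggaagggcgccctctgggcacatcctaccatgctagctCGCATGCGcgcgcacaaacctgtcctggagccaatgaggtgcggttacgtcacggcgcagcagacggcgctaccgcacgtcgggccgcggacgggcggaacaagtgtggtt
Cox6a1: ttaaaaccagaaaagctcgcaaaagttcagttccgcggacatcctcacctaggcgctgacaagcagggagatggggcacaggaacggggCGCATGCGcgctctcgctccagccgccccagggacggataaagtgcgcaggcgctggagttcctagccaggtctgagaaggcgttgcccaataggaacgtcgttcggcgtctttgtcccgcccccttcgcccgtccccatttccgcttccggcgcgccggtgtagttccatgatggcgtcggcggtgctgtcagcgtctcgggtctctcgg
Atp5b: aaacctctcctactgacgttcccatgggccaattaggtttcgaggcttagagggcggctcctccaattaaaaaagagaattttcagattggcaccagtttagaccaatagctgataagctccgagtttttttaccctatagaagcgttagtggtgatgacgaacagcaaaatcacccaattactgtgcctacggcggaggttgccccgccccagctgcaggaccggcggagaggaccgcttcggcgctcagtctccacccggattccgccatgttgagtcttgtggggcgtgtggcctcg
Cox6b2: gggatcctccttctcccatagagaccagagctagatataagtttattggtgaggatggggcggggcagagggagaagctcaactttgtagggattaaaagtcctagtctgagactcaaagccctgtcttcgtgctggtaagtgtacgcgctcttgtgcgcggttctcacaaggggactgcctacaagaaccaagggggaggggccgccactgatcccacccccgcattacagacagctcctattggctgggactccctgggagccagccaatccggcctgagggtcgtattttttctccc
Sdha: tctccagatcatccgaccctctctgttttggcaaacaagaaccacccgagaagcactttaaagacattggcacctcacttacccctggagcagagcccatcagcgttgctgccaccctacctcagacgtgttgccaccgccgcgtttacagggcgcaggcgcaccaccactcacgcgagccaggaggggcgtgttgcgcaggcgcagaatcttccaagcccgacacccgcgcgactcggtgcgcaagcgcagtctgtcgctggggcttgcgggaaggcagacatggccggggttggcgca

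A promoter was available for 68 of the 85 members, 80 of which were matched to RefSeq by symbol and 5 by an older symbol. The NRF1 motif, searched on both strands like the others, was found in 10 of the 68 members (14.7%), against 2.07% of the 27025 genes with a promoter. The YY1 motif AAGATGGC was found in 11 (16.2%), against 3.19% of all genes. The ETS motif CCGGAAGT of GABPA was found in 5 (7.35%), against 4.31%, and the ERR motif TCAAGGTCA in 2 (2.94%), against 0.466%. Any of these motifs was found in 26 members (38.2%), against 9.48% of all genes. A match in these windows is a description of the letters and not a site of binding.

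Most subunits were abundant, and complex IV held the members with the highest levels per length. Per kilobase of annotated exon, the median over 46 libraries was 4534 normalised reads among the 10 commonly used subunits of complex IV, 1632 among the 15 subunits of complex V, 1521 in complex III, 999 in supernumerary and 979 in core subunits of complex I, and 782 in complex II. Cox8a (11422), Cox4i1 (10213) and Cox6a1 (7614), all structural subunits of complex IV, stood near Ndufa4 (7684 normalised reads per kilobase) at the upper end. Among core subunits of complex I, the level per kilobase ran from 393 for Ndufs1 to 1420 for Ndufv2. As an uncorrected level, Atp5b, the catalytic beta subunit of ATP synthase, was the highest member, with a mean of 15629 normalised reads, followed in complex V by Atp5a1 (9654) and the stalk subunit Atp5o (4463). The highest means were 3780 (Ndufa4), 2825 (Ndufv2) and 2349 (Ndufs3) in complex I, 2694 (Uqcrc1), 2434 (Uqcrc2) and 2427 (Uqcrh) in complex III, and 6935 (Cox4i1), 6225 (Cox8a) and 5345 (Cox6a1) in complex IV. The 4 subunits of complex II averaged 3767 (Sdha), 1614 (Sdhb), 1304 (Sdhc) and 1084 (Sdhd) normalised reads.

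**Figure D1:**
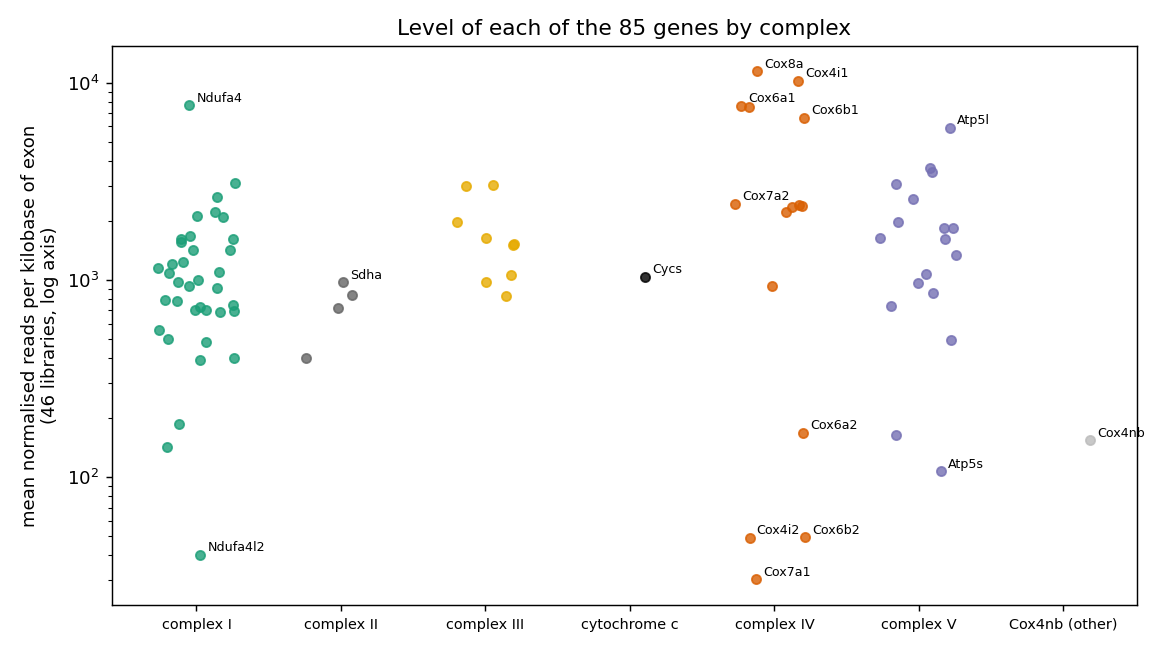
Mean normalised reads per kilobase of exon over 46 libraries (log axis) for each of the 85 genes, placed by complex. The tissue-restricted isoforms Cox6a2, Cox4i2, Cox6b2, Cox7a1 and Ndufa4l2 lie between 30.2 and 168 normalised reads per kilobase, far under their common counterparts.

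Isoforms known for tissue-restricted use were present at low level. Set against the sum of both isoforms per kilobase of exon, Cox6a2, the heart and skeletal muscle form of subunit 6A, made up 2.15% over all libraries. The same share was 0.477% for Cox4i2, a form of subunit 4 known from lung and hypoxic cells, 0.741% for Cox6b2, the testis form of subunit 6B, and 1.23% for Cox7a1, the heart and skeletal muscle form of subunit 7A. Ndufa4l2, a hypoxia-induced relative of Ndufa4, made up 0.522%. Cox8b and Cox7b2, left out for their low mean, averaged 5.33 ± 4.18 and 7.29 ± 5.94 normalised reads in Foxp2hum/hum DMS and 5.34 ± 3.72 and 7.55 ± 4.99 in wild-type DMS, and likewise 10.6 ± 9.54 and 7.42 ± 5.47 in Foxp2hum/hum DLS and 6.04 ± 5.84 and 9.11 ± 4.89 in wild-type DLS.

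The first comparison asked how the members differed between the subdivisions within each genotype. In Foxp2hum/hum mice, Atp5b, Cycs, Cox6a1 and Ndufs1 were lower in DMS than in DLS by 1.22-fold to 1.35-fold, and Cox6b2 was higher in DMS. In wild-type mice, Atp5b, Cycs and Atp5sl were lower in DMS, by 1.20-fold, 1.37-fold and 1.17-fold, and no member was higher. With limma and Benjamini-Hochberg adjustment over 19561 genes, 5 of 85 members passed as lower in Foxp2hum/hum DMS, against 8.82% of all genes tested, and 1 passed as higher, against 9.33%. In wild-type DMS 3 passed as lower, against 8.72%, and 0 as higher, against 8.54%. The share of members that passed was thus at or under that of all genes in both genotypes. Among genes with a mean of at least 500 normalised reads, 16.2% passed as lower in Foxp2hum/hum DMS and 16.1% in wild-type DMS. As higher, 5.85% and 5.74% of these genes passed. At an unadjusted p under 0.05, 11 members were on the lower and 1 on the higher side in Foxp2hum/hum, against 13.9% and 14.9% of all genes tested, and 9 and 1 in wild-type, against 13.8% and 14.5%.

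The signs were less evenly divided than those of all genes. The difference DMS minus DLS was below 0 for 73 of 85 members in Foxp2hum/hum, against 47.4% of all genes tested, and for 73 of 85 in wild-type, against 49%. Both differences were below 0 for 70 members and above 0 for 9. The median log2 difference was -0.12 in Foxp2hum/hum and -0.08 in wild-type, against 0.02 and 0.01 over all genes tested. Members were mostly abundant, and among genes with a mean of at least 500 normalised reads the median was -0.05 in each genotype. The counts below 0 depended on scaling: after quantile normalisation 62 of 85 differences were below 0 in Foxp2hum/hum and 47 in wild-type, and with the mitochondrially encoded share as a covariate 47 in Foxp2hum/hum and 40 in wild-type. They depended on single libraries too, with 63 to 80 below 0 in Foxp2hum/hum and 51 to 79 in wild-type when each library was left out in turn. The Foxp2hum/hum median was -0.07 without DLS library 60 and -0.21 without DLS library 94. The wild-type median was -0.03 and -0.02 without DLS library 43 or 51, -0.15 without DLS library 89, and -0.05 and -0.04 without DMS library 72 or 88.

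**Figure D2:**
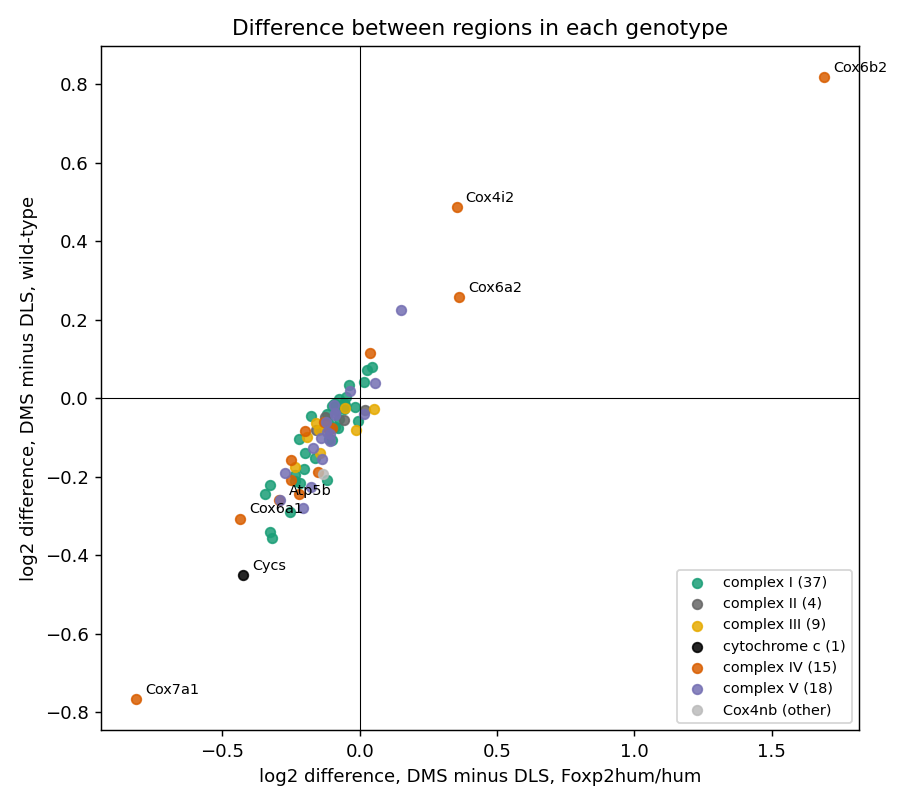
Log2 difference DMS minus DLS in Foxp2hum/hum (horizontal) and in wild-type mice (vertical) for each of the 85 genes, coloured by complex. Most genes lie a little below 0 on both axes, with Cycs at -0.42 and -0.45 and Cox6b2 at 1.69 and 0.82.

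In complex I, the median log2 difference was -0.20 over the 7 core subunits in Foxp2hum/hum and -0.18 in wild-type, against -0.09 and -0.05 over the 29 supernumerary subunits, and the difference between these classes was not tested. Ndufs1 encodes the largest iron-sulphur subunit of the electron input arm (chr1:63190170-63223396, minus strand, mm9). It had 1076, 1344 and 1536 normalised reads in Foxp2hum/hum DMS (lowest, median and highest of 12), against 1284, 1659 and 2271 in Foxp2hum/hum DLS. All 12 DMS libraries lay below the DLS median and 3 below the lowest DLS library, so the groups overlapped. The log2 difference was -0.33 ± 0.09 (SE), with an adjusted p of 0.005 by limma. With Ttr, a choroid plexus gene, as a covariate it was -0.34 ± 0.11 and passed (adjusted p = 0.0378 by limma). With Ttr and Ccdc153, an ependymal marker, as covariates it was -0.15 ± 0.22 and did not pass (adjusted p = 0.717). In that fit 125 of all genes tested passed as lower in Foxp2hum/hum DMS and 92 in wild-type DMS, against 1725 and 1706 without covariates. A lost call there cannot be told apart from a loss of precision. For Ndufs1 in wild-type, the lowest, median and highest were 875, 1386 and 1574 in DMS and 1176, 1549 and 1993 in DLS. The difference of -0.22 ± 0.09 did not pass (adjusted p = 0.0913 by limma), though it did without DLS library 70 (-0.26, adjusted p = 0.0409). The noncoding gene Gm11602 lies across 44.2% of the Ndufs1 span on the opposite strand, with a mean equal to 70.5% of that of Ndufs1, and reads from them cannot be told apart.

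Ndufs3, another core subunit, had differences of -0.33 ± 0.13 in Foxp2hum/hum and -0.34 ± 0.14 in wild-type, neither of which passed (adjusted p = 0.0869 and 0.0901 by limma). Ndufs7, Ndufs8 and Ndufv1, core subunits too, had differences between -0.08 and 0.04. None of the 29 supernumerary subunits passed in either genotype. The farthest of these from 0 was Ndufb8 in Foxp2hum/hum, at -0.34.

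In complex II, which also takes part in the tricarboxylic acid cycle, no member passed. The flavoprotein gene Sdha averaged 3713 ± 337 normalised reads in Foxp2hum/hum DMS, 3668 ± 338 in wild-type DMS, 3871 ± 405 in Foxp2hum/hum DLS and 3813 ± 386 in wild-type DLS. Its regional log2 differences were -0.06 ± 0.06 in Foxp2hum/hum and -0.05 ± 0.07 in wild-type, with 95% intervals of -0.19 to 0.07 and -0.19 to 0.08. Sdhb, Sdhc and Sdhd ran from -0.16 to 0.02 over both genotypes. Complex III likewise had no member that passed. Its 9 differences ran from -0.24 to 0.05 in Foxp2hum/hum and from -0.18 to -0.02 in wild-type, and the nearest to passing was Uqcrc1, a core protein of the complex, at -0.16 in Foxp2hum/hum (adjusted p = 0.143 by limma).

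Cycs, the mobile carrier of electrons from complex III to complex IV and a trigger of apoptosis once released, lies at chr6:50512562-50516537 on the minus strand of mm9. It had 2417, 2945 and 4530 normalised reads in Foxp2hum/hum DMS (lowest, median and highest), against 2974, 4025 and 5866 in Foxp2hum/hum DLS. In wild-type these were 1890, 2688 and 3682 in DMS, against 2776, 3459 and 5770 in DLS. Both genotypes showed the same order with overlap: 6 of 12 Foxp2hum/hum and 7 of 11 wild-type DMS libraries lay below the lowest DLS library. The log2 differences were -0.42 ± 0.12 (SE, adjusted p = 0.00812 by limma) in Foxp2hum/hum and -0.45 ± 0.13 (adjusted p = 0.00737 by limma) in wild-type. With Ttr as a covariate the Foxp2hum/hum difference no longer passed (-0.38, adjusted p = 0.107), while the wild-type difference did (-0.42, adjusted p = 0.0395). With Ttr and Ccdc153, neither genotype passed, at -0.78 ± 0.30 in Foxp2hum/hum and -0.88 ± 0.33 in wild-type (adjusted p = 0.168 in each).

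In complex IV, 11 of 15 differences were below 0 in each genotype, and only Cox6a1 and Cox6b2 passed, both in Foxp2hum/hum alone. The difference between genotypes in these regional differences was tested as an interaction and did not pass for any member. Cox6a1, the common form of subunit 6A (chr5:115795651-115798990, minus strand, mm9), had 3582, 4760 and 6921 normalised reads in Foxp2hum/hum DMS, against 2689, 6414 and 9096 in Foxp2hum/hum DLS. The lowest library of all 24 was a DLS library, and 11 of 12 DMS libraries lay below the DLS median. The log2 difference was -0.44 ± 0.14 (SE, adjusted p = 0.0256 by limma). It was -0.33 and no longer passed after quantile normalisation (adjusted p = 0.0727), and did not pass with Ttr (-0.39, adjusted p = 0.191) or the mitochondrially encoded share (-0.32, adjusted p = 0.0651) as a covariate, or without DLS library 60 (-0.39, adjusted p = 0.0528). With Ttr and Ccdc153 as covariates it was -1.30 ± 0.34 and passed (adjusted p = 0.0266). The common isoforms Cox4i1, Cox6b1, Cox7a2 and Cox8a had differences between -0.25 and -0.08 over both genotypes, and none passed. For Cox6a1 in wild-type, the means were 4451 ± 728 in DMS and 5693 ± 1792 in DLS, with a difference of -0.31 ± 0.15 (adjusted p = 0.167 by limma), which passed without DLS library 89 (-0.40, adjusted p = 0.0395).

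Cox6b2 (chr7:4703396-4704696, minus strand, mm9) went the other way. It had 17.7, 41.5 and 103 normalised reads in Foxp2hum/hum DMS, against 2.37, 12.1 and 40.5 in Foxp2hum/hum DLS, and 13.2, 29.1 and 52.9 in wild-type DMS, against 4.33, 16.5 and 38.5 in wild-type DLS. In Foxp2hum/hum all 12 DMS libraries lay above the DLS median, and 7 lay above the highest DLS library. The log2 difference was 1.69 ± 0.32 (SE, adjusted p = 5.26e-05 by limma) in Foxp2hum/hum and 0.82 ± 0.33 (adjusted p = 0.0826 by limma; 0.95 and adjusted p = 0.0387 without DLS library 51) in wild-type, while the interaction was 0.87 ± 0.46 (unadjusted p = 0.0624, adjusted p = 1.0 by limma). The DMS captures held higher levels of choroid plexus and ependyma genes than the DLS captures. The summed level of 8 such markers was 931 to 7477 normalised reads in Foxp2hum/hum DMS, 595 to 11090 in wild-type DMS, 356 to 493 in Foxp2hum/hum DLS and 375 to 522 in wild-type DLS, and 7 of the 8 were higher in DMS in each genotype. Ccdc153 averaged 196 ± 76.7 normalised reads in Foxp2hum/hum DMS, against 5.17 ± 8.13 in DLS of that genotype. With both Ttr and Ccdc153 as covariates, the Cox6b2 difference was 0.73 ± 0.80 in Foxp2hum/hum and did not pass (adjusted p = 0.614 by limma), and it was -0.29 ± 0.88 in wild-type. Over the 46 libraries with group means removed, Cox6b2 and Ccdc153 had Pearson's r = 0.215 (permutation p = 0.225) and Spearman's rho = 0.23 (permutation p = 0.149), with r = 0.785 within Foxp2hum/hum DMS and r = 0.203 within wild-type DMS.

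**Figure D3:**
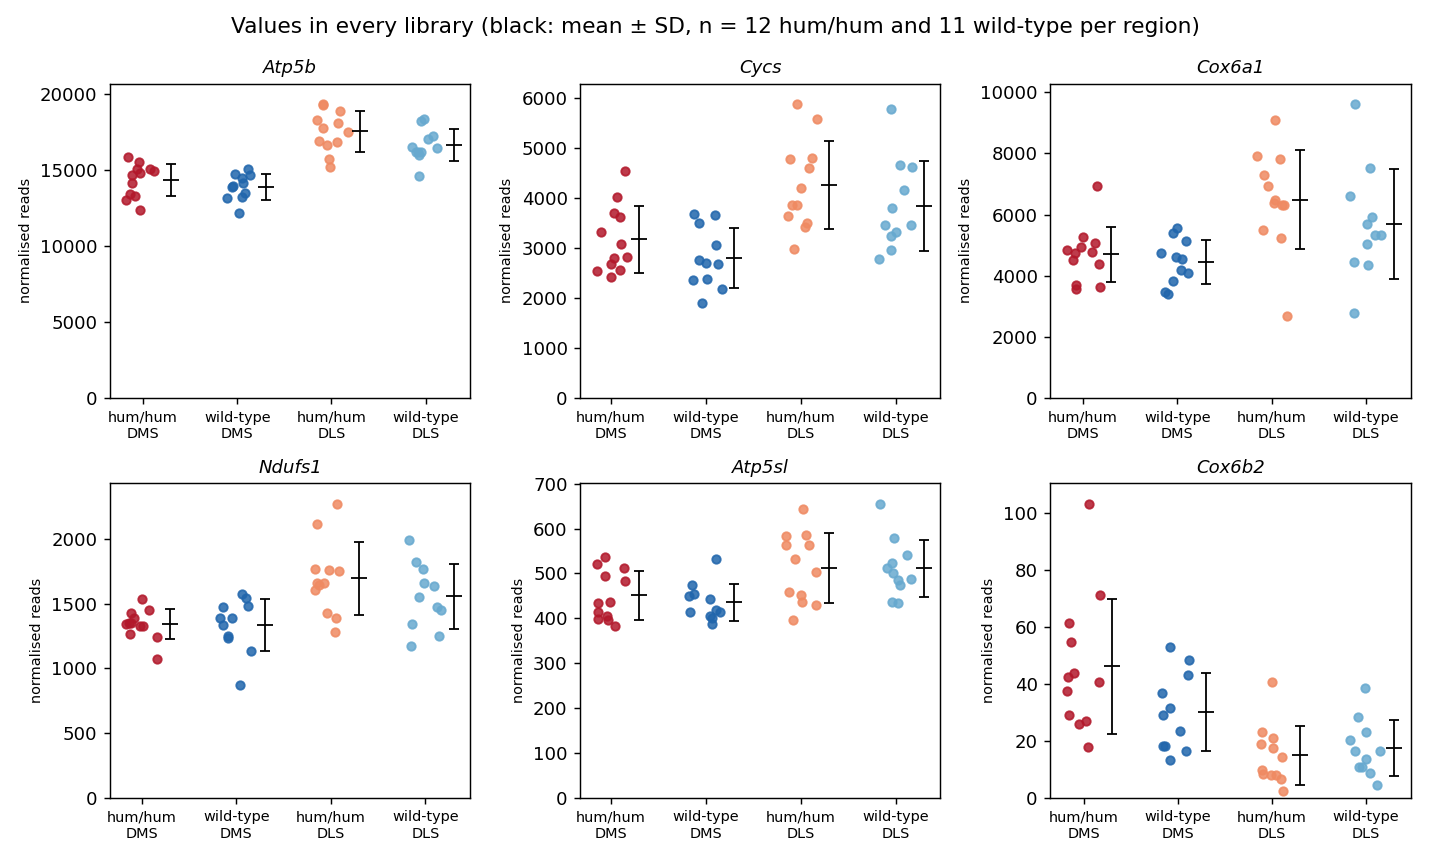
Normalised reads in every library (points) for Atp5b, Cycs, Cox6a1, Ndufs1, Atp5sl and Cox6b2, by genotype and region, with the mean ± SD in black (n = 12 Foxp2hum/hum and 11 wild-type per region). The means of the first 5 genes are lower in DMS than in DLS in both genotypes, with overlap of the groups, and that of Cox6b2 is higher in DMS; Atp5b and Cycs passed in both genotypes, Cox6a1, Ndufs1 and Cox6b2 in Foxp2hum/hum alone and Atp5sl in wild-type alone.

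In complex V, the difference was clearest for Atp5b (chr10:127520329-127527447, plus strand, mm9). It had 12401, 14735 and 15864 normalised reads in Foxp2hum/hum DMS (lowest, median and highest), against 15210, 17629 and 19338 in Foxp2hum/hum DLS. In wild-type the values were 12203, 13933 and 15077 in DMS, against 14605, 16434 and 18364 in DLS. Of the DMS libraries, 10 of 12 in Foxp2hum/hum and 8 of 11 in wild-type lay below the lowest DLS library. The log2 differences were -0.29 ± 0.05 (SE, adjusted p = 4.96e-05 by limma) and -0.26 ± 0.06 (adjusted p = 0.000516 by limma). Quantile normalisation ended both calls, with -0.07 (adjusted p = 0.652) in Foxp2hum/hum and -0.02 (adjusted p = 0.912) in wild-type. Both passed with Ttr alone as a covariate, at -0.26 (adjusted p = 0.00634) in Foxp2hum/hum and -0.24 (adjusted p = 0.0066) in wild-type. Neither passed with Ttr and Ccdc153 as covariates, at -0.35 ± 0.14 (adjusted p = 0.17) and -0.34 ± 0.15 (adjusted p = 0.22), where few of all genes passed. The whole Atp5b span lies within that of Baz2a on the same strand, which had a mean of 17439 normalised reads, and how reads in such overlaps were assigned is not stated in the labels.

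The other subunits of the catalytic F1 head, Atp5a1, Atp5c1, Atp5d and Atp5e, had regional differences between -0.14 and -0.09 in Foxp2hum/hum and between -0.16 and -0.04 in wild-type, none of which passed. Atp5a1, the alpha subunit that pairs with beta, had 7920, 8985 and 11264 normalised reads in Foxp2hum/hum DMS, against 8774, 10190 and 11362 in Foxp2hum/hum DLS. Among the 10 subunits of the membrane Fo part and the stalks, none passed in either genotype. The 3 genes of the identical mature c subunit of the Fo ring differed in sign: Atp5g1 had -0.27 in Foxp2hum/hum and -0.19 in wild-type, Atp5g3 had -0.12 and -0.09, and Atp5g2 had 0.15 and 0.22. Atp5sl (chr7:26404433-26410570, plus strand, mm9) averaged 451 ± 55.1 normalised reads in Foxp2hum/hum DMS against 512 ± 77.3 in Foxp2hum/hum DLS, a log2 difference of -0.18 that did not pass (adjusted p = 0.11 by limma). In wild-type, it averaged 436 ± 41.1 in DMS and 512 ± 63.6 in DLS, and the difference of -0.23 ± 0.08 passed (adjusted p = 0.0419 by limma), though not without the filter on low values (adjusted p = 0.0504). It did not pass with Ttr (-0.18, adjusted p = 0.204), with Ttr and Ccdc153 (-0.15 ± 0.21, adjusted p = 0.713) or with the mitochondrially encoded share (-0.18, adjusted p = 0.0869) as covariates. Nor did it pass without any 1 of 13 libraries (adjusted p between 0.0502 and 0.0913).

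The restricted and the common form had regional differences of opposite sign in the Cox4, Cox6a and Cox6b pairs, and both were below 0 for Cox7a1 with Cox7a2 and for Ndufa4l2 with Ndufa4. The share of Cox6a2 is given as a description with no test. Cox6a2 made up 2.67% ± 0.621 of the Cox6a1 and Cox6a2 level per kilobase in Foxp2hum/hum DMS, with a range of 1.5% to 4.05%, against 1.60% ± 0.472 and 0.477% to 2.21% in Foxp2hum/hum DLS. In wild-type it made up 2.76% ± 0.544 in DMS, ranging from 2.16% to 3.94%, against 1.87% ± 0.278 and 1.43% to 2.55% in DLS. The Cox6a2 level itself was 119 ± 30.97 and 119 ± 34.3 normalised reads in Foxp2hum/hum and wild-type DMS, and 102 ± 35.5 and 101 ± 33.3 in Foxp2hum/hum and wild-type DLS, and its regional differences of 0.36 ± 0.23 and 0.26 ± 0.24 did not pass. Itgad overlaps 66 bases of Cox6a2 on the opposite strand, with a mean equal to 19.6% of that of Cox6a2. Cox4i2 had regional differences of 0.35 and 0.49, Cox7a1 of -0.81 and -0.77, and Ndufa4l2 of -0.32 and -0.36 in Foxp2hum/hum and wild-type, none of which passed. Cox7a1 was near the limit of detection, with 0 to 30.6 normalised reads per library.

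Other genes of the pathway were counted from fixed lists, against 8.82% of all genes tested that passed as lower in Foxp2hum/hum DMS and 8.72% in wild-type DMS, and 9.33% and 8.54% that passed as higher. All 13 mitochondrially encoded subunits had regional differences below 0 in both genotypes, with medians of -0.33 in Foxp2hum/hum and -0.29 in wild-type, and 3 and 2 of them (23.1% and 15.4%) passed as lower in DMS: mt-Nd5 and mt-Nd6 in both (-0.56 and -0.56 in Foxp2hum/hum, -0.52 and -0.49 in wild-type) and mt-Nd4l in Foxp2hum/hum (-0.37). Of 17 genes of the tricarboxylic acid cycle and pyruvate dehydrogenase, 4 passed as lower in Foxp2hum/hum DMS (23.5%) and 5 in wild-type DMS (29.4%), and 0 as higher. Dlst and Ogdh, subunits of the 2-oxoglutarate dehydrogenase complex, passed in both, with -0.30 and -0.43 in Foxp2hum/hum and -0.24 and -0.42 in wild-type. Of 30 assembly factors found among 45 listed, 3 passed as lower in Foxp2hum/hum (10%) and 2 in wild-type (6.67%), near the share of all genes. Ttc19, which acts in complex III assembly, had -0.48 and -0.50, and Atpaf1, which helps to build the F1 head, had -0.49 and -0.44. Of 14 regulators, 3 were lower (21.4%) and 2 higher (14.3%) in Foxp2hum/hum DMS, and 4 lower (28.6%) and 1 higher (7.14%) in wild-type DMS. Ppargc1a, a coactivator of mitochondrial biogenesis, had -0.73 ± 0.15 and -0.52 ± 0.15 (adjusted p = 0.000156 and 0.0127 by limma), and Esrra, an orphan nuclear receptor that works with it, -0.50 ± 0.08 and -0.52 ± 0.09 (adjusted p = 5.11e-06 and 5.2e-06). Nrf1 was higher, with 0.34 ± 0.12 and 0.50 ± 0.13 (adjusted p = 0.0377 and 0.0027 by limma).

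The comparison of genotypes asked whether the members differed between Foxp2hum/hum and wild-type mice in either region. No member passed in DMS, in DLS or in the mean of both regions, by limma, edgeR or DESeq2, and no gene of the table did so by limma, a background of 0%. At an unadjusted p under 0.05, 0 members passed in DMS, 0 in DLS and 1 in the mean of both regions, against 3.58%, 4.31% and 8.58% of all genes tested. That 1 was Cox7b, a small subunit of complex IV. It averaged 2754 ± 718 normalised reads in Foxp2hum/hum DMS and 2267 ± 675 in wild-type DMS, and 3498 ± 1263 in Foxp2hum/hum DLS and 2850 ± 1309 in wild-type DLS. Its log2 difference over both regions was 0.32 ± 0.14 (SE, unadjusted p = 0.0329, adjusted p = 0.574 by limma).

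The genotype differences were small and mostly of 1 sign. Foxp2hum/hum minus wild-type was above 0 for 80 of 85 members in DMS, 82 in DLS and 84 in the mean of both, against 50.1%, 48% and 49.2% of all genes tested, and 77 members were above 0 in both regions. The medians were 0.11, 0.15 and 0.14, against 0.0004, -0.01 and -0.003 over all genes. The members vary together from library to library, as shown in the covariation results that follow, so 80 positive signs are not 80 separate observations. The 95% interval lay within a 1.5-fold change either way for 79 members in DMS, 77 in DLS and 81 in the mean. By complex, the median in DMS and DLS was 0.12 and 0.16 in complex I, 0.06 and 0.08 in complex II, 0.11 and 0.14 in complex III, 0.13 and 0.19 in complex IV and 0.08 and 0.10 in complex V. Without libraries 70 and 72, both wild-type, in which the members took the smallest shares of the reads (0.471% and 0.394%), the medians were 0.07 in DMS and 0.11 in DLS. With the mitochondrially encoded share as a covariate they were 0.03 and 0.07, and 60 members in DMS and 75 in DLS were above 0. With Ttr and Ccdc153 as covariates, 75 members were above 0 in DMS (median 0.07) but 45 in DLS (median 0.01), and 66 in the mean of both (median 0.04). Of single libraries, DMS library 64 of Foxp2hum/hum and 72 of wild-type took the DMS median to 0.06 and 0.07 when left out. The DLS median was 0.09 and 0.24 without Foxp2hum/hum library 60 or 94 and 0.08 without wild-type library 89, which also took the mean of both regions to 0.09.

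The members with the smallest p in DMS were Cox6b2 at 0.58 ± 0.32, Atp5f1 at 0.19 ± 0.11 and Uqcrb at 0.27 ± 0.16, all with adjusted p = 0.955 by limma. Uqcrb, a ubiquinone-binding subunit of complex III, averaged 1424 ± 322 normalised reads in Foxp2hum/hum DMS and 1173 ± 223 in wild-type DMS. In DLS they were Cox7a2l at 0.20 ± 0.12, Cox7b at 0.33 ± 0.20 and Uqcrc2 at 0.14 ± 0.09, with adjusted p = 0.843 by limma. Cox7a2l averaged 2637 ± 593 in Foxp2hum/hum DLS and 2293 ± 522 in wild-type DLS. On the lower side, Atp5o had -0.01, Atp5d -0.02 and Uqcrc1 -0.004 in DMS, and Cox6b2 had -0.29, Cox6a2 -0.10 and Atp5sl -0.005 in DLS, each smaller than its standard error. Over both regions, the nearest to Cox7b were Cox7a2l at 0.17 ± 0.08 and Cox6c at 0.23 ± 0.12 (adjusted p = 0.575 by limma), and Cox6a2 at -0.04 was the 1 member below 0. Cox7a1 had the highest differences, 0.65 ± 0.53 in DMS and 0.69 ± 0.53 in DLS, at 0 to 30.6 normalised reads per library. The interaction of genotype and region passed for 0 members by limma, edgeR or DESeq2, and 0 had an unadjusted p under 0.05, against 1.64% of all genes tested. After Cox6b2, those with the smallest p were Cox4nb (0.06) and Atp5f1 (0.08) above 0, and Atp5o (-0.08), Uqcrc1 (-0.09) and Ndufs1 (-0.10) below 0. The 13 mitochondrially encoded subunits were also above 0 in Foxp2hum/hum in both regions, with medians of 0.14 in DMS and 0.19 in DLS, and 0 passed.

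**Figure D4:**
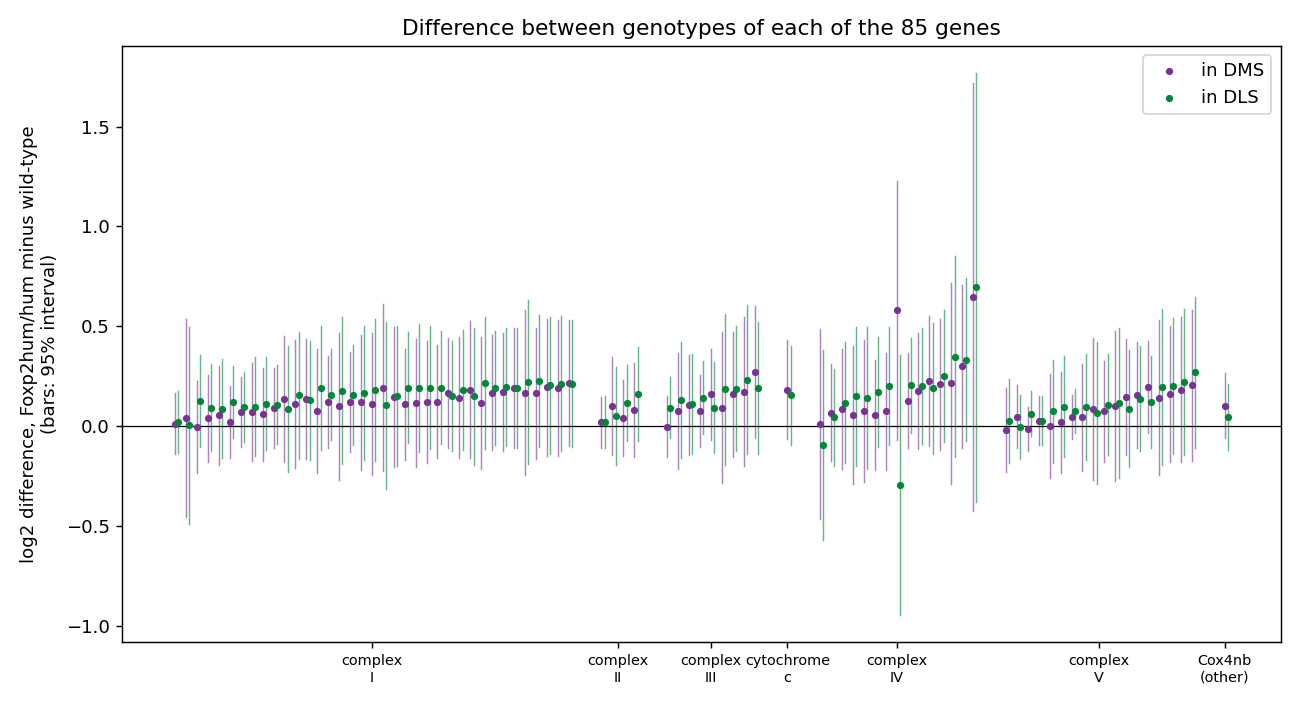
Log2 difference Foxp2hum/hum minus wild-type of each of the 85 genes, in DMS (purple) and in DLS (green), ordered within each complex by the mean over both regions, with 95% intervals of limma as bars. Most points lie above 0, at a median of 0.11 in DMS and 0.15 in DLS, and every bar crosses 0.

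The members varied together between libraries of the same group. With group means removed, the median Pearson's r over pairs of members was 0.814 across 46 libraries, and 95.07% of pairs were above 0, against a median of -0.0003 and 49.96% over pairs of all tested genes. These are descriptions over pairs that share libraries and a size factor. Members were mostly abundant, and their pairs were not compared with pairs of genes of like level. The mean log2 level of the 85 genes was 10.42 ± 0.24 in Foxp2hum/hum DMS, 10.30 ± 0.20 in wild-type DMS, 10.53 ± 0.37 in Foxp2hum/hum DLS and 10.39 ± 0.38 in wild-type DLS. Single libraries ran from 9.97 to 10.59 in wild-type DMS, the group with the narrowest range, against 10.30 to 10.53 for the group means. Leaving out library 94 alone took the number of members that passed by region in Foxp2hum/hum to 14, and all 6 of the full set passed again. Among the 14 were Atp5g1, Cox5a, Cox8a, Ndufa12, Ndufb8, Ndufs3, Ndufv3 and Uqcrc1. How many of all genes passed in that fit is not given here, so the rise is not shown to be particular to the members. The summed level of 5 astrocyte markers ran opposite to the members, at 46381 normalised reads in library 94 and 36397 in library 89. It ranged from 11059 to 33208 in Foxp2hum/hum DMS, 11725 to 37844 in wild-type DMS, 11206 to 46381 in Foxp2hum/hum DLS and 12457 to 42375 in wild-type DLS. Slc1a2, a glutamate transporter of astrocytes, made up most of this sum, at 8334 to 40514 in Foxp2hum/hum DLS. By region, 2 of these 5 markers, Gfap and Gja1, passed as higher in DMS in each genotype, and by genotype 0 passed in either region (limma, adjusted p under 0.05).

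A few members stood apart from this shared movement. Of the 85, 66 had r above 0.8 with the mean of the other members and 77 above 0.6, with a median of 0.924 and Cox5b highest at 0.977. Sdha (-0.34) and Cox4nb (-0.35) were inverse to the rest, and Atp5a1 (0.13), Ndufa4l2 (0.13), Atp5s (0.17), Ndufs1 (0.23), Cox7a1 (0.35) and Cox6b2 (0.40) were weakly related to it. Ndufs1 and Atp5b (0.62), both lower in DMS, were thus among the members that followed the shared movement least closely, while Cox6a1 (0.95) followed it closely. The members with r above 0.8 had a median of 1204 annotated exon bases, against 2259 for the other 19. Across members, r with the others and exon length had Spearman's rho = -0.374 (85 genes, which are not independent replicates). Whether transcript length or RNA quality has a part in the shared movement was not tested.

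**Figure D5:**
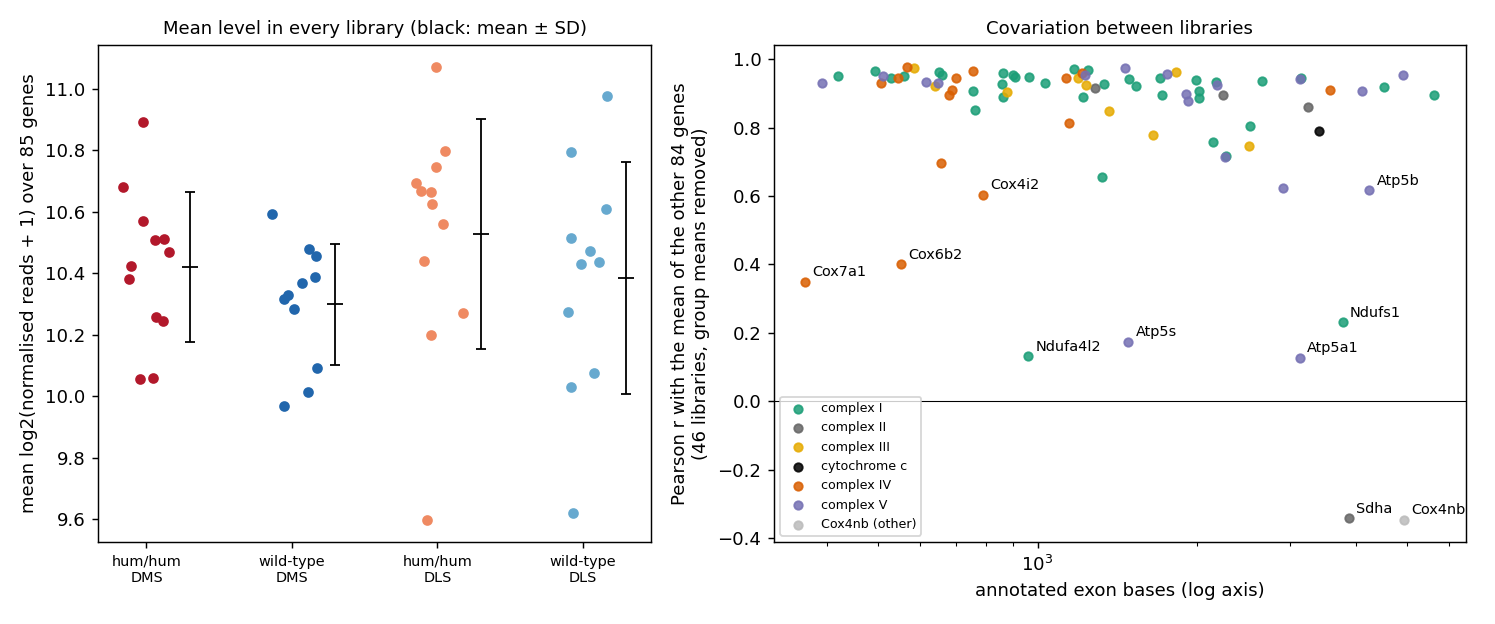
Left: mean log2(normalised reads + 1) over the 85 genes in every library, with the group mean ± SD in black; 1 library of each genotype in DLS lies near 9.6. Right: Pearson's r of each gene with the mean of the other 84 across 46 libraries, with group means removed, against annotated exon bases (log axis); most genes lie above 0.8, and Sdha and Cox4nb lie below 0.

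In all, 11 relations of members with other measures were computed over the 46 libraries with group means removed, and p-values were adjusted over the 11. The mean of the members was positively related to the mitochondrially encoded share (Pearson's r = 0.445, permutation p = 0.00154, adjusted p = 0.00423; Spearman's rho = 0.446, permutation p = 0.0026). Without the 2 libraries farthest from the median share, r was 0.362, and within groups it ran from 0.204 to 0.691. The mean of the members was inversely related to the summed level of the neuronal markers (r = -0.422, permutation p = 0.00131, adjusted p = 0.00423, and rho = -0.53, permutation p = 0.00015). This r was -0.389 without the 2 farthest libraries, but 0.173 within Foxp2hum/hum DLS. The closest relation was the inverse one to the astrocyte markers (r = -0.854, rho = -0.859, permutation p = 1e-05 for each, the smallest that 100000 permutations can give, adjusted p = 0.00011). It was -0.852 without the 2 farthest libraries and ran from -0.906 to -0.809 within the 4 groups. Of the single markers, Slc1a2 had r = -0.845, Gja1 -0.718, Aqp4 -0.683, Aldh1l1 -0.642 and Gfap -0.159. Of the other 9 marker lists, pericytes and smooth muscle had r = -0.62 and oligodendrocytes 0.139, the lowest and the highest. Both measures also went with the library number: most libraries numbered 70 or above had low member means and high astrocyte sums. Libraries 90 and 92 did not, with member means of 10.43 and 10.63 and astrocyte sums of 17039 and 16421. The labels do not say what the numbers stand for, and permuting within groups takes no account of them. What part astrocytes or the order of the libraries have in the shared movement was not tested. The relation of the members to total reads did not pass (r = 0.177, permutation p = 0.281, and rho = 0.294, permutation p = 0.0532). That to the mean of Sdha, Atp5a1 and Ndufs1 did not pass either (r = 0.05, permutation p = 0.752, and rho = 0.044, permutation p = 0.778). These genes had been chosen for their low r with the other members in the same libraries, so this pair cannot serve as a test.

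For the restricted isoforms, Cox6a2 was set against Pvalb, the marker of fast-spiking interneurons. They had r = 0.545 (permutation p = 5e-05, adjusted p = 0.000275) and rho = 0.456 (permutation p = 0.0013), with r = 0.528 without the 2 farthest libraries. Within groups, r was 0.668 in Foxp2hum/hum DMS, -0.104 in wild-type DMS, 0.703 in Foxp2hum/hum DLS and 0.687 in wild-type DLS. Cox6a2 also had r = 0.697 with the mean of the other members. The summed level of 5 parvalbumin interneuron markers, Pvalb among them, had r = -0.574 with the mean of the members. This sum was not set against Cox6a2 itself. Between regions Cox6a2 and Pvalb differed, with Pvalb lower in DMS by log2 -2.67 in Foxp2hum/hum and -2.17 in wild-type, where Cox6a2 did not pass. Genes most like Cox6a2 over the 46 libraries were Snx3 (Pearson's r = 0.845), Ypel3 (0.837), Mt1 (0.825), Tecr (0.825) and Polr2l (0.824). Cox4i2 and the pericyte marker Rgs5 had r = -0.367 (permutation p = 0.0147, adjusted p = 0.0324) and rho = -0.298 (permutation p = 0.047, adjusted p = 0.0975). This relation was -0.205 without the 2 farthest libraries. Within groups, r was 0.0109 in Foxp2hum/hum DMS, -0.496 in wild-type DMS, -0.602 in Foxp2hum/hum DLS and -0.431 in wild-type DLS. The genes most like Cox4i2 were Gm14872 (r = 0.723), Gm6181 (0.711), Ramp2 (0.707), Igsf5 (0.674) and Pcp4 (0.668). Ndufa4l2 with Rgs5 (r = 0.185, permutation p = 0.261), Cox7a1 with Acta2 (r = -0.0533, permutation p = 0.758) and Cox8b with Ttr (r = 0.124, permutation p = 0.413) did not pass. Those most like Ndufa4l2 were Txndc11, Grap, Kcnab3, Ly6g6f and Bcl6b (r between 0.517 and 0.59), and those most like Cox7a1 were 2010001A14Rik, Tspan17, Med8, Cryba4 and Snf8 (r between 0.509 and 0.595).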

How the data were processed

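The deposited signal table gives, for 46 libraries, read counts that the authors divided by a DESeq size factor per library. TopHat 1.4.1, bedtools and mm9 are also named, per the submitters' processing notes. Every library's values were whole multiples of a single step (tolerance 0.01), so whole reads could be recovered; the deposited values are called normalised reads. limma 3.58.1 (R 4.3.3) was fitted to log2(value + 1) with 4 group means over all libraries and a trended eBayes, for the 19561 genes whose mean reached 10. The p-values are two-sided, were adjusted over all of these by the Benjamini-Hochberg method, and passed under 0.05. Log2 differences are on that scale and understate changes of low genes. Whole reads were also analysed with edgeR 4.0.16 and DESeq2 1.42.0. Further alternatives were other pseudocounts and filters, quantile normalisation, array weights, covariates and leaving out each library. Relations across libraries used 100000 permutations within groups. The limma procedure was tested on simulated data. Positions and exon lengths come from GENCODE M1 (mm9), in which all 85 members were found. Named members were alternative isoforms, members that passed, the 3 with the smallest p in each direction by genotype and interaction, and the 3 with the highest mean of each complex. Ndufb8, Ndufs7, Ndufs8, Ndufv1, Atp5c1, Atp5e and members singled out for covariation were named after their values were seen. Members, lists and tests were chosen with earlier results of these data known. The relations of Cox6b2 with Ccdc153, and of the members with total reads, with the mean of Sdha, Atp5a1 and Ndufs1 and with astrocyte markers, were added after seeing the data. A member that passed by region and a gene of the pathway lists are counted but not reported here.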

Additional observations from a re-analysis of the deposited data

How the results depend on the processing

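No paired analysis was possible because the labels number no replicates and name no animals. The number of members that passed by region, 6 in Foxp2hum/hum and 3 in wild-type, moved to 16 and 9 with limma's array weights. The counts over all genes moved as well. Of the 19561 tested, 1725 were lower and 1825 higher in Foxp2hum/hum DMS, and 1706 and 1671 in wild-type DMS. With array weights these counts were 2243 and 2309 in Foxp2hum/hum, and 2221 and 2356 in wild-type. In wild-type, 7 members passed at a threshold of 0.1, where 2165 of all genes were lower and 2185 higher. With the mitochondrially encoded share as a covariate 5 members passed (2286 and 2465 of all genes), and with Ttr and Ccdc153 as covariates 0 (92 and 166). In Foxp2hum/hum, 3 members passed after quantile normalisation (1682 lower and 1719 higher of all genes). With Ttr 3 members passed (1129 and 1150), and with Ttr and Ccdc153 1 passed (125 and 223). These 2 covariates together took the median difference of the members to -0.72 in Foxp2hum/hum and -0.81 in wild-type. Leaving out each library gave 2 to 5 members that passed in wild-type (5 without DLS library 70 or 89) and 4 to 14 in Foxp2hum/hum (14 without DLS library 94). By genotype and for the interaction it gave 0 to 0. The counts over all genes in these fits are not given here. Sign changes concerned differences near 0, except for Cox6b2 by region in wild-type. By genotype, Atp5d changed sign in DMS with Ttr (0.00459), and Uqcrc1 in DMS with edgeR, quantile normalisation or Ttr (0.00106, 0.00144 and 0.0119). Atp5sl did so in DLS with edgeR, edgeR without mitochondrially encoded genes, DESeq2, quantile normalisation, array weights, Ttr, and Ttr with Ccdc153 (0.00221, 0.00843, 0.00184, 0.0028, 0.017, 0.000986 and 0.00786). Cox6a2 changed sign with both edgeR fits, DESeq2 and array weights, in DLS (0.0171, 0.0219, 0.0137 and 0.0754) and in the mean of regions (0.00995, 0.0104, 0.00723 and 0.0707). Cox6b2 by region in wild-type went from 0.82 to -0.29 ± 0.88 with Ttr and Ccdc153. Leaving out single libraries, the genotype differences ran from -0.0508 to 0.00666 for Atp5d, -0.0262 to 0.0148 for Uqcrc1, -0.0360 to 0.0317 for Atp5sl, -0.196 to 0.159 for Cox6a2 in DLS and -0.0934 to 0.0840 for Cox6a2 in the mean of regions. Of the correlations that passed by Pearson's r, Cox6a2 with Pvalb changed sign within wild-type DMS (-0.104) and Cox4i2 with Rgs5 within Foxp2hum/hum DMS (0.0109). That of the members with neuronal markers changed sign within Foxp2hum/hum DLS (0.173). Each correlation that did not pass changed sign within at least 1 group. Within groups, r moved to 0.785 (Cox6b2 with Ccdc153), 0.505 (Cox8b with Ttr) and 0.630 (members with total reads) in Foxp2hum/hum DMS, to 0.821 (Ndufa4l2 with Rgs5), -0.835 (neuronal markers), -0.223 (total reads) and -0.491 (Sdha, Atp5a1 and Ndufs1) in wild-type DMS, to -0.602 (Cox4i2 with Rgs5), -0.785 (Ndufa4l2 with Rgs5) and -0.436 (Cox7a1 with Acta2) in Foxp2hum/hum DLS, and to -0.644 (Cox8b with Ttr), 0.691 (mitochondrially encoded share), -0.731 (neuronal markers) and -0.134 (Cox6b2 with Ccdc153) in wild-type DLS. The causes were not tested. Counting error is small for most members, but the isoforms with means under 50 rest on few reads per library.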
